A study of Rattus norvegicus with 30 samples.

Results

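Matrix-binding integrins are the cell surface receptors by which tendon fibroblasts, muscle fibres and other cells hold on to collagen, fibronectin, vitronectin and laminin. The transcripts of 10 integrin subunit genes were followed in rat plantaris tendons, and all 10 were found by name among the 13124 genes of the count table. The genes were the collagen receptor subunits Itga1, Itga2, Itga10 and Itga11, the subunits Itga5 and Itgav of receptors that bind the RGD motif, the laminin receptor subunit Itga7, and the beta subunits Itgb1, Itgb5 and Itgb8. All 10 passed the filter on low counts, which kept 12558 genes.

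The 30 plantaris tendons came from male Sprague Dawley rats that were 3 months old. The 3 control tendons were from rats with no surgery and no compound. In the other 27, the tendon was cut through and sutured, and the rats received GSK2894631A by gavage until 7 or 21 days after repair. This compound inhibits the hematopoietic prostaglandin D synthase (HPGDS) and was given at doses of 0, 2 and 6 mg/kg. By rising dose the 7D groups held 5, 4 and 3 tendons, and every 21D group held 5. The rats at 0 mg/kg were operated on as well, so each contrast with control tendons holds the injury, the repair and the dosing together. Read counts summed to between 12405741 and 49909374 per tendon over the genes listed. Levels are given as CPM, the reads of a gene per 1000000 counts, scaled by TMM. A level of 1 gene can be compared between tendons, but levels of different genes cannot, because exon lengths were not used here. Each tendon was a bulk sample, so fewer cells of a type and less RNA per cell cannot be told apart.

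Integrins work as pairs of 1 alpha and 1 beta subunit. The beta 1 subunit, encoded by Itgb1, joins with the alpha subunits of the collagen and laminin receptors and with alpha 5, the fibronectin receptor. The alpha v subunit can also pair with beta 5, which binds vitronectin, and with beta 8, which binds latent TGF-beta. In tendon such receptors join cells to the collagen fibres that carry load, and the alpha 7 beta 1 pair anchors muscle fibres to laminin, also where muscle meets tendon.

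Control replicate 4 stood apart from the other control tendons. Of the 10 integrin genes, 9 had their lowest control level in it, and its tendon marker genes summed to 11040 CPM against 42030 and 23830 CPM in control replicates 2 and 3. A list of skeletal muscle genes, of which 25 were found, took 31.75% of its counts against 22.28% and 22.03% in the other control tendons. The same list took 0.296 to 1.55% of the counts in 7D 0 mg/kg tendons, 0.0496 to 0.0529% at 2 mg/kg and 0.0524 to 0.0828% at 6 mg/kg. In the 21D groups it took 0.123 to 9.14% without compound, 1.49 to 3.78% at the lower dose and 0.411 to 10.98% at the higher dose. Acta1, skeletal muscle actin, had the highest mean level of the list over all tendons together, as counted and not per length. In 7D 2 mg/kg tendons it had 1.61 to 5.74 CPM of a list sum of 469 to 508 CPM. In 7D 6 mg/kg tendons it had 5.51 to 9.995 CPM of 490 to 777 CPM. Nearly all of the share in these groups thus came from other genes of the list. The tendon marker list was present in every group, with the most reads from Col1a1. For the 10 integrin genes, calls against control tendons that were lost without control replicate 4 or with the muscle share as a covariate are therefore given as such, and for the other gene lists the counts in both fits are given. No repaired tendon reached the muscle share of a control tendon, so this covariate rests on the straight line of the model between the groups.

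Compared to control tendons, 7D 0 mg/kg tendons had higher levels of Itga5, Itga11 and Itgav and a lower level of Itga7. At 21 days after repair with 0 mg/kg, Itga5, Itga10, Itga11 and Itgav were higher and Itga7 was lower. The Itgb1 level did not pass the test in any repaired group. A gene was called when its p from the quasi-likelihood test of edgeR, adjusted by Benjamini-Hochberg over all 12558 genes, was under 0.05, and this rule holds for each adjusted p below. The counts of higher genes stood near the shares over all genes. At 7 days 3 of 10 integrin genes were higher and 1 was lower, where 35.8% of all genes tested were higher and 35.6% lower. At 21 days 4 were higher and 1 was lower, where the shares over all genes were 32.2% and 33.7%. With the inhibitor, 4 rose and 1 fell in each 7D group, beside 35.8% and 34% of all genes at 2 mg/kg. At 6 mg/kg these shares were 34.1% and 33.8%. In the 21D 2 mg/kg group 5 genes rose and 2 fell, beside 33.8% and 35.3% of all genes. In the 21D 6 mg/kg group 4 rose and 1 fell, beside 30.8% and 33.3%. The median log2 fold change of the 10 genes was 0.41 at 7 days and 0.69 at 21 days, and that of all genes was 0.0481 and 0.0292. Without control replicate 4 the higher integrin genes numbered 1, 3 and 1 in the 7D groups by rising dose and 3, 3 and 2 in the 21D groups. In that fit 30.7%, 31% and 30% of all genes were higher in the 7D groups and 26.5%, 28% and 25% in the 21D groups. The 1 of 10 higher at 7D 0 and 6 mg/kg lay below these shares. So did the 1 of 10 lower in the same groups with all tendons, beside 35.6% and 33.8%, and neither gap was tested. Itga7 was still lower in all 6 groups. Control replicate 2 had the highest control level for 7 of the 10 genes, and without it 4 genes were higher in each 7D group and 5, 6 and 6 in the 21D groups, beside 31.6 to 32.3% of all genes at 7 days and 28 to 30.2% at 21 days. The tendons were also read by whether a repaired group overlapped the control tendons. At 7D 0 mg/kg, Itga5 and Itgav lay wholly above and Itga7 wholly below, as did 31.2% and 30.7% of all genes. The 7D 6 mg/kg group had the same 3 genes, beside 34.6% and 32.3%, and the 7D 2 mg/kg group had Itgb8 above in addition, beside 30.1% and 29.1%. At 21D 0 mg/kg 1 gene, Itga5, was wholly above and Itga7 below, beside 25% and 27.8%. At 21D 2 mg/kg Itga5, Itga10, Itgav and Itgb5 were wholly above and Itga1 and Itga7 below, beside 29.5% and 30.3%. At 21D 6 mg/kg Itga5 and Itgav were above and Itga7 below, beside 25.9% and 27.8%.

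**Figure D1:**
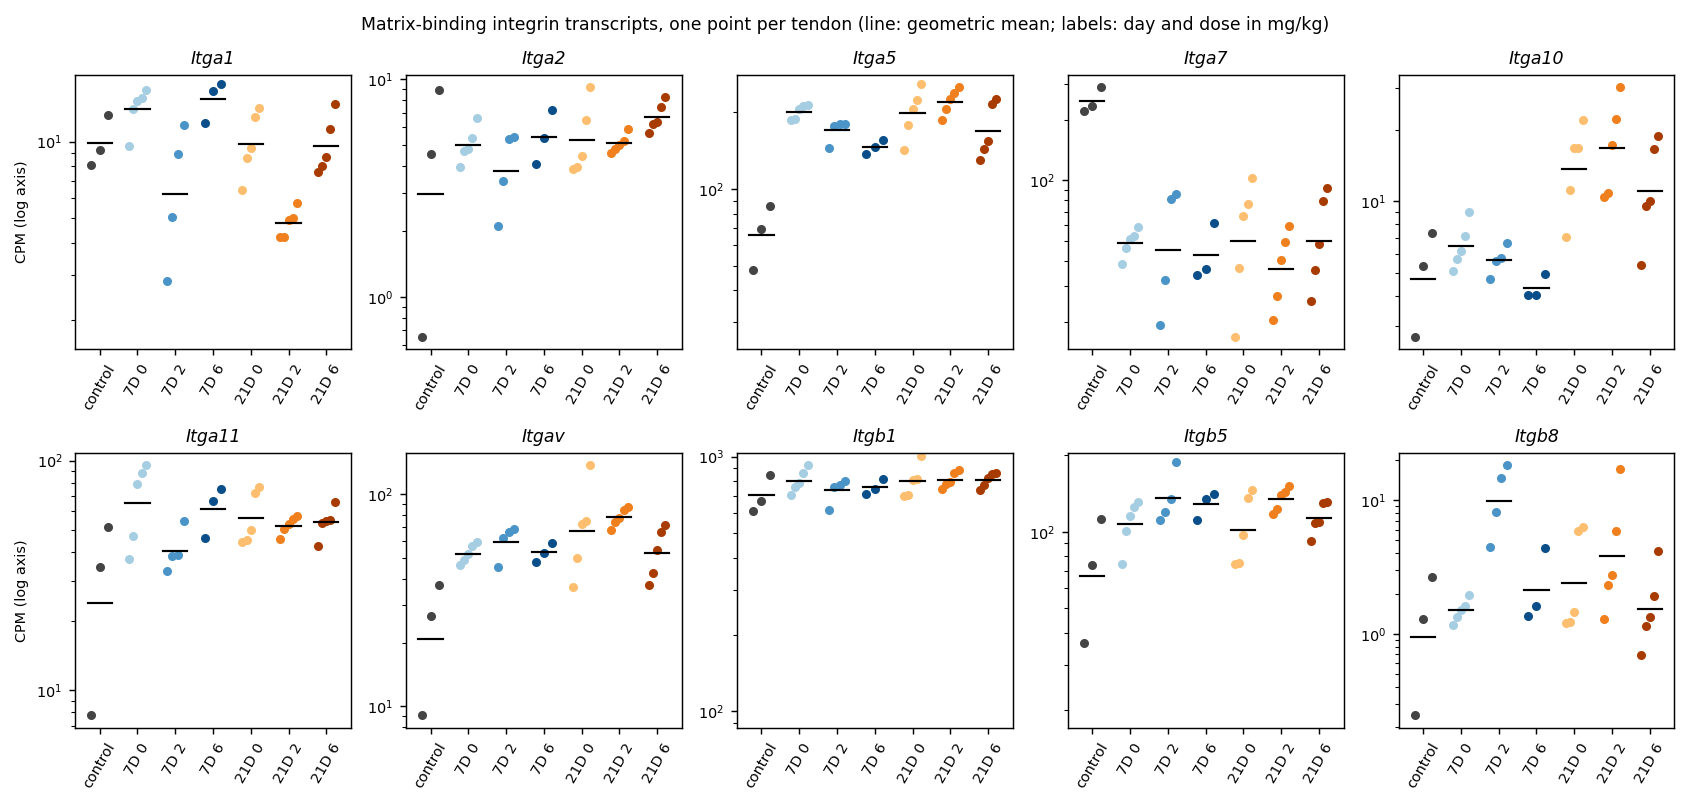
Level of each integrin gene in CPM on a log axis, with 1 point per tendon, a line at the geometric mean, and groups by day and dose in mg/kg. Itga5 in control tendons (48.1 to 85.4 CPM) lies below every repaired tendon, Itga7 in control tendons (220.2 to 290.0 CPM) lies above every repaired tendon, and Itgb1 spans 614 to 1009 CPM over all groups.

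**Figure D2:**
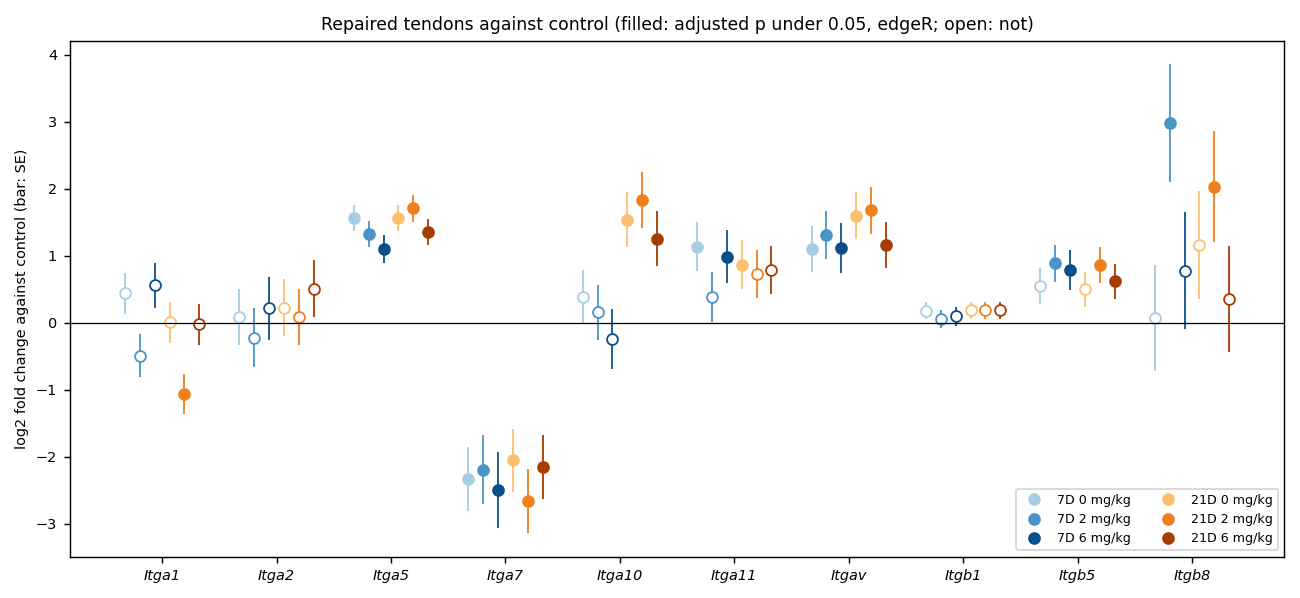
Log2 fold change of each integrin gene in the 6 repaired groups against control tendons, with bars of 1 SE and filled points where the adjusted p was under 0.05 by edgeR. Itga5 and Itgav are filled above 0 and Itga7 is filled below 0 in all 6 groups, while Itga2 and Itgb1 have open points throughout.

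Promoter sequence is shown for Itga5 and Itgav, which were higher in all 6 repaired groups, and for Itga10, which differed between 7 and 21 days. RefSeq promoters were matched for 9 of the 10 genes on the GRCr8 build, which is not the rn6 build of the counts. The 250 bases before the annotated start are printed 5′ to 3′ on the strand of the gene. Capitals mark matches, on either strand, to AP-1 (TGANTCA), SP1 (GGGCGG), TEAD (GGAATG), CArG or MEF2 motifs. The regions are chr7:136381306-136381555 on the minus strand for Itga5, chr3:89245132-89245381 on the plus strand for Itgav and chr2:186871461-186871710 on the plus strand for Itga10.
Itga5: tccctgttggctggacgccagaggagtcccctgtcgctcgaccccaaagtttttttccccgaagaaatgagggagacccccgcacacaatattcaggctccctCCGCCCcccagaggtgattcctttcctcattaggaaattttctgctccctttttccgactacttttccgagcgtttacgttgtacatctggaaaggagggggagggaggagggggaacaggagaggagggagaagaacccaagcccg
Itgav: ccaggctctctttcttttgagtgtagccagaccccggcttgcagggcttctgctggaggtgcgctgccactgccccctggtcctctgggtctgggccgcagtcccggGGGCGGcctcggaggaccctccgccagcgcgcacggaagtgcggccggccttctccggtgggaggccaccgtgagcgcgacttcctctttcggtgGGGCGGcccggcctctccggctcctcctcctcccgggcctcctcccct
Itga10: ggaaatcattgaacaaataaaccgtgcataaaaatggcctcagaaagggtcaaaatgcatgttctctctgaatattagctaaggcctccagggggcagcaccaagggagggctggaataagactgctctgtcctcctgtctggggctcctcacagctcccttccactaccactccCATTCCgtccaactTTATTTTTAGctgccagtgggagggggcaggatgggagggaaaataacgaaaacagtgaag
The Itga5 region held 1 SP1 match and the Itgav region held 2. The Itga10 region held a TEAD match at -75 to -70 from the start and a MEF2 match at -61 to -52 that reads on both strands, and it held no SP1 match. Over 33469 rat promoters, the same window held SP1 in 30.5%, TEAD in 12.1%, AP-1 in 6.34%, MEF2 in 2.96% and CArG in 1.5%. A match to these letters describes the sequence and was not measured as binding.

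The RGD receptor subunits rose. Itga5 encodes the alpha subunit of the main fibronectin receptor. The control tendons had 85.4, 69.8 and 48.1 CPM. Tendons of the 7D 0 mg/kg group had 187, 211, 214, 189 and 206 CPM, and those of the 21D 0 mg/kg group had 178, 259, 207, 223 and 143 CPM. The groups did not overlap at either time. The log2 fold change was 1.57 at both times, with an SE between 0.194 and 0.208 in all contrasts with control tendons, and the 21D 0 mg/kg mean was 2.98 times that of control tendons. At 2 and 6 mg/kg, Itga5 rose by log2 fold changes of 1.33 and 1.11 on day 7 and by 1.71 and 1.36 on day 21, again with no overlap. The largest adjusted p of the 6 contrasts was 4.72e-05. Itga5 was called in all 6 contrasts whichever tendon was left out. With the muscle share as a covariate its value was 0.64 (adjusted p = 0.184) at 7D 2 mg/kg and 0.45 (adjusted p = 0.338) at 7D 6 mg/kg, neither of which passed, and it was called in the other 4 contrasts.

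Itgav, the alpha v subunit, had control levels of 37.4, 26.7 and 9.07 CPM. The 7D 0 mg/kg tendons had 49.0, 59.5, 57.2, 46.2 and 52.1 CPM, all above the control tendons. The 21D 0 mg/kg tendons had 36.5, 137, 75.3, 72.4 and 50.01 CPM, and the lowest of these lay within the control range. By rising dose, its log2 fold change from control tendons was 1.11, 1.31 and 1.12 on day 7, and on day 21 it was 1.60, 1.68 and 1.16. All 6 passed, with adjusted p between 0.000172 and 0.0098. Without control replicate 4 the value was 0.66 (adjusted p = 0.0673) at 7D 0 mg/kg, 0.70 (adjusted p = 0.0748) at 7D 6 mg/kg and 0.72 (adjusted p = 0.0546) at 21D 6 mg/kg. With the muscle covariate the value was 0.22 (adjusted p = 0.658) at 7D 0 mg/kg and 0.60 (adjusted p = 0.11) at 21D 6 mg/kg, it was below 0 at 7D 2 and 6 mg/kg, and the calls at 21D 0 and 2 mg/kg were kept. In a fit of only the groups compared the 7D 6 mg/kg value was 1.11 and did not pass (adjusted p = 0.0757).

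Itgav levels also moved with macrophage transcripts. Over the 30 tendons, its log2 CPM deviation from the group mean had a Pearson r of 0.822 with that of the summed macrophage markers, a Spearman rho of 0.662, and an r of 0.713 without the 2 most extreme tendons. With the endothelial list r was -0.724, with the tendon list 0.61 and with the skeletal muscle list -0.579, so several lists varied with it. The tendons share library depth and scaling, so these values are a description. The 8 macrophage markers summed to 233 to 1228 CPM in control tendons, 1825 to 4107 CPM at 7D 0 mg/kg and 1203 to 7447 CPM at 21D 0 mg/kg, with the most reads from Lyz2. Their part in the Itgav result was not tested.

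The laminin receptor subunit fell. Itga7 is known as the main alpha subunit of the laminin receptor of skeletal muscle fibres. Control tendons held 235, 290.0 and 220.2 CPM, and the 7D 0 mg/kg group held 58.6, 51.3, 52.8, 46.1 and 38.5 CPM. The 21D 0 mg/kg group held 103, 16.8, 37.0, 76.2 and 66.8 CPM. Every repaired tendon, at each dose and time, lay below every control tendon. By rising dose the log2 fold change was -2.33, -2.19 and -2.49 on day 7. On day 21 it was -2.05, -2.66 and -2.15, with SE between 0.474 and 0.571 and adjusted p of at most 0.000563. All 6 contrasts stayed past the threshold whichever tendon was left out.

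The skeletal muscle list was lower in the same contrasts as Itga7. All 25 skeletal muscle genes were lower at 7D 0 mg/kg, with a median log2 fold change of -5.76, and 23 were lower at 21D 0 mg/kg, with a median of -3.22. These counts were 25 and 22 without control replicate 4, and 3 and 5 with the covariate, which is built from the same list. Of all genes, 35.6% and 33.7% were lower at 7 and 21 days. These shares were 35.5% and 32.6% without control replicate 4 and 26.4% and 27.6% with the covariate. With the muscle share as a covariate, Itga7 had a value of -0.60 (adjusted p = 0.369) at 7D 0 mg/kg and values above 0 at 7D 2 and 6 mg/kg, none of which passed. At 21 days it still passed with the covariate, at -1.11 (adjusted p = 0.0385), -1.58 (adjusted p = 0.0037) and -1.23 (adjusted p = 0.0231) for 0, 2 and 6 mg/kg. Within groups, the log2 CPM deviations of Itga7 had a Pearson r of 0.665 with those of the summed muscle list over the 30 tendons, a Spearman rho of 0.584, and an r of 0.596 without the 2 most extreme tendons. This was the highest r of Itga7 with any of the 7 marker lists. In 7D 2 mg/kg tendons the muscle share was between 0.0496 and 0.0529%, while Itga7 was 19.2 and 32.2 CPM in replicates 2 and 3 and 85.2 and 81.1 CPM in replicates 4 and 5. Acta1 had only 1.61 to 5.74 CPM in these tendons, against 35680 to 72820 CPM in control tendons. That share thus came almost wholly from other genes of the list, and whether it tracks muscle fibres at this level was not tested. Among the genes whose deviations from group means were most like those of Itga7 was Sgca (r = 0.875 over the 30 tendons), which encodes alpha-sarcoglycan of the muscle membrane. The part of muscle content in the Itga7 result was not tested beyond the covariate.

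**Figure D3:**
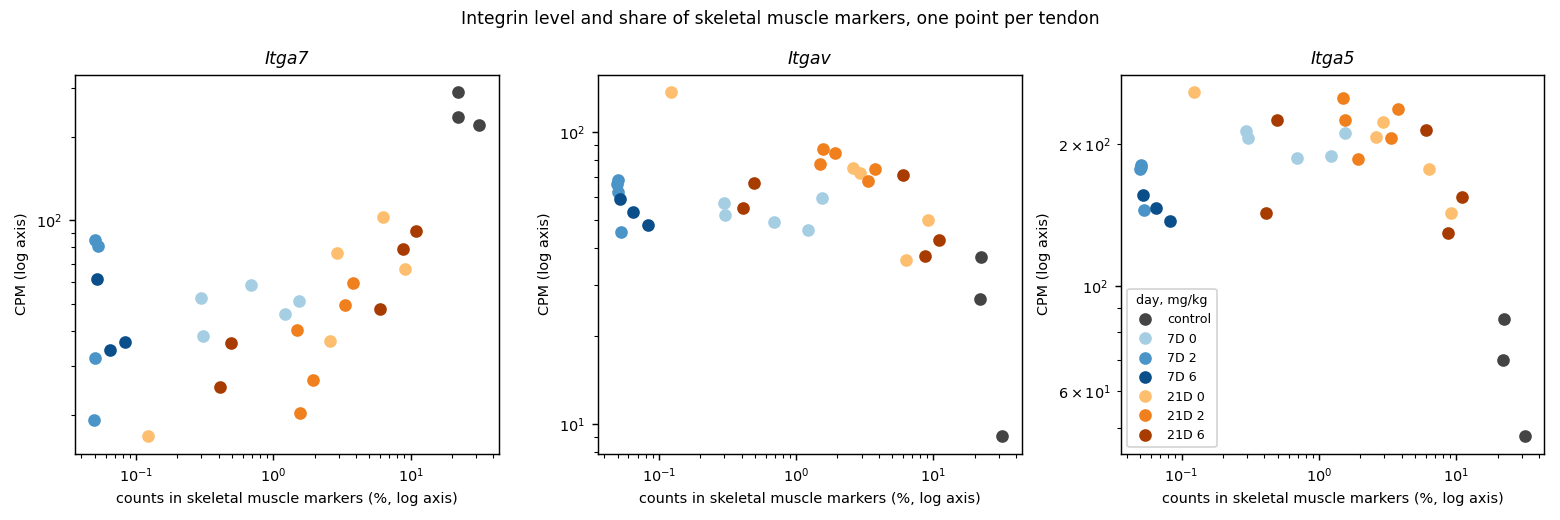
Levels of Itga7, Itgav and Itga5 in CPM against the share of counts in the skeletal muscle list, both on log axes, with 1 point per tendon and colours for the groups. The control tendons lie apart at 22.03 to 31.75%, and the 7D 2 mg/kg tendons share a muscle share of about 0.05% while their Itga7 levels run from 19.2 to 85.2 CPM. In the 7D 2 mg/kg tendons Acta1 had 1.61 to 5.74 CPM, and their share came almost wholly from other genes of the list.

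The collagen receptor subunits passed in different contrasts with control tendons, and differences between the subunits were not tested. Within groups, the deviations of Itga2 and Itga11 had an r of 0.771 over all tendons. Itga10, the alpha 10 subunit, is best known from cartilage. Control tendons had 5.33, 2.69 and 7.35 CPM, and the 7D 0 mg/kg group had 5.08, 6.17, 7.11, 9.04 and 5.71 CPM. The 21D 0 mg/kg group had 16.67, 16.68, 11.11, 22.02 and 7.07 CPM. At 7 days the repaired and control tendons overlapped at every dose and the log2 fold changes of 0.39, 0.16 and -0.24 did not pass. Scaled by library size only, the 7D 0 mg/kg value was 1.03 and passed (adjusted p = 0.0209), where the median of all genes was 0.641. At 21 days Itga10 was higher than in control tendons by 1.54, 1.84 and 1.26 at 0, 2 and 6 mg/kg, with no overlap at 2 mg/kg. Without control replicate 3 the 21D 6 mg/kg value was 0.96 (adjusted p = 0.0651), and with the muscle covariate it was 1.08 (adjusted p = 0.0582). Of the 7 cartilage markers found, 2 rose and 2 fell at 21D 0 mg/kg against control tendons, with Matn3, a cartilage matrilin, at 3.36 and Clec3a at -8.93, beside 32.2% and 33.7% of all genes. From 7 to 21 days 0 of the 7 were called higher at any dose and 1, Clec3a at 2 mg/kg, was lower. By rising dose, 2.88%, 7.09% and 8.54% of all genes were higher and 2.47%, 5.98% and 4.55% lower in these contrasts. Over all tendons together, the most reads of the list came from Comp. The part of cartilage cells in the Itga10 result was not tested.

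Itga11 encodes the alpha 11 subunit, a fibroblast receptor for fibrillar collagens. Its control levels were 51.6, 34.5 and 7.76 CPM. Its 7D 0 mg/kg levels were 37.2, 78.9, 88.0, 95.3 and 47.1 CPM, and its 21D 0 mg/kg levels were 43.9, 72.4, 76.5, 45.1 and 50.01 CPM. Both repaired groups overlapped the control tendons. It was called at 7D 0 mg/kg (log2 fold change 1.14), 7D 6 mg/kg (0.99) and 21D 0 mg/kg (0.87), and the other values of 0.39, 0.73 and 0.79 did not pass. Without control replicate 2, the values at 21D 2 and 6 mg/kg passed, at 1.21 (adjusted p = 0.00979) and 1.29 (adjusted p = 0.00781). Scaled by library size only, all 3 passed, at 0.88, 1.19 and 1.22, and DESeq2 called the one at 21D 6 mg/kg (adjusted p = 0.0393). All 3 calls were lost without control replicate 4, at 0.63 (adjusted p = 0.0662), 0.50 (adjusted p = 0.173) and 0.37 (adjusted p = 0.28), and all 3 were lost with the muscle covariate, at 0.95, 0.68 and 0.74. They were also lost in a fit of only the groups compared, where the values were close to those above, at 1.12 (adjusted p = 0.106), 0.98 (adjusted p = 0.201) and 0.89 (adjusted p = 0.176). At 7D 6 mg/kg the call was also lost without replicate 1 or 4 of that group, and at 21D 0 mg/kg without control replicate 3 or without replicate 2 or 3 of the repaired group.

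Itga1 and Itga2 encode the classic collagen-binding subunits. Itga1 was between 2.83 and 16.8 CPM over all tendons, and it was called lower in 21D 2 mg/kg tendons, at 4.996, 4.23, 5.71, 4.92 and 4.22 CPM against 12.7, 9.26 and 8.09 CPM in control tendons, with no overlap (log2 fold change -1.06, adjusted p = 0.0031). Scaled by library size, that value was -0.54 (adjusted p = 0.114), and Itga1 was then called higher at 7D 0 mg/kg (1.03, adjusted p = 0.0056) and 7D 6 mg/kg (1.14, adjusted p = 0.00522). In that scaling the median of all genes was 0.641 and 0.632. Itga2 was between 0.654 and 9.19 CPM over all tendons, and its 6 contrasts with control tendons, between -0.22 and 0.51, did not pass. Without control replicate 2 the 21D 6 mg/kg value was 1.28 and passed (adjusted p = 0.0191). Its control tendons alone spread from 0.654 to 8.92 CPM, with replicate 2 the highest and replicate 4 the lowest.

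The beta 1 subunit, which most of these alpha subunits share, did not pass the test. Itgb1 stood at 671, 847 and 614 CPM in control tendons. The 7D 0 mg/kg group had 708, 787, 859, 926 and 758 CPM, and the 21D 0 mg/kg group had 709, 1009, 809, 816 and 702 CPM. The groups overlapped, and the log2 fold changes in the 6 repaired groups lay between 0.06 and 0.19 with SE between 0.127 and 0.141. The lowest adjusted p was 0.179. By library size only, the median log2 fold change of all genes moved to between 0.508 and 0.641 against control tendons, and Itgb1 was called higher in all 6 groups, at 0.60 to 0.76. Under both scalings it lay close to the median of all genes. Without control replicate 3, Itgb1 was called higher in 7D 0 mg/kg tendons and in all 3 21D groups, at values between 0.36 and 0.38.

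Itgb5 pairs with alpha v in a vitronectin receptor, and the gene table gives its rat model as a processed transcript. Control tendons had 113, 73.9 and 36.5 CPM, 7D 0 mg/kg tendons 74.5, 101, 115, 125 and 131 CPM, and 21D 0 mg/kg tendons 75.5, 97.2, 145, 135 and 75.0 CPM. These groups overlapped and the values of 0.55 and 0.50 did not pass. Without control replicate 2, the highest of the control tendons, both passed, at 0.92 (adjusted p = 0.00645) and 0.88 (adjusted p = 0.00971), and so they did when scaled by library size only, at 1.1 and 1.02. The 7D 0 mg/kg value also passed with a filter at a mean of 10 CPM, at 0.61 (adjusted p = 0.0445), and without replicate 1 of that group, at 0.66 (adjusted p = 0.0307). It was called higher at 7D 2 mg/kg (0.89), 7D 6 mg/kg (0.79), 21D 2 mg/kg (0.86) and 21D 6 mg/kg (0.62), and all 4 calls were lost without control replicate 4, with adjusted p of 0.0833, 0.168, 0.103 and 0.406. All 4 were also lost with the muscle covariate, at 0.52 (adjusted p = 0.519), 0.43 (adjusted p = 0.581), 0.72 (adjusted p = 0.0564) and 0.48 (adjusted p = 0.199). In a fit of only the groups compared the calls at 7D 2, 7D 6 and 21D 6 mg/kg were lost at values close to those above, 0.87 (adjusted p = 0.0705), 0.77 (adjusted p = 0.12) and 0.67 (adjusted p = 0.109). The 7D 6 mg/kg call was also lost without replicate 1 of that group, at 0.72 (adjusted p = 0.0568). The 21D 6 mg/kg value was 0.59 with RLE factors (adjusted p = 0.0533) and with the muscle list removed before scaling (adjusted p = 0.0548), 0.63 without control replicate 3 (adjusted p = 0.0851) and 0.56 to 0.63 without replicate 2, 3, 4 or 5 of that group (adjusted p from 0.0522 to 0.084), none of which passed.

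Itgb8 encodes the beta 8 subunit and rested on few reads. Control tendons had 2.64, 1.28 and 0.245 CPM, from 56, 32 and 3 counts. The 7D 0 mg/kg tendons had 1.95, 1.34, 1.62, 1.51 and 1.17 CPM and overlapped them. It was called higher in 7D 2 mg/kg tendons, at 8.18, 4.43, 18.3 and 14.6 CPM, with no overlap and a log2 fold change of 2.98 (SE 0.882, adjusted p = 0.00436). It was also called at 21D 2 mg/kg, at 5.84, 17.2, 2.33, 2.77 and 1.29 CPM (log2 fold change 2.03), and this call was lost at a value of 1.99 without control replicate 3 (adjusted p = 0.0804) and of 2.05 in a fit of only the groups compared (adjusted p = 0.0981). It was also lost at 1.52 without control replicate 4 (adjusted p = 0.146) and at 1.09 without replicate 2 of the repaired group (adjusted p = 0.192). With the muscle covariate both calls were lost, at 0.31 (adjusted p = 0.901) for 7D 2 mg/kg and 1.0 (adjusted p = 0.338) for 21D 2 mg/kg.

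Setting each alpha subunit against Itgb1 in the same tendon does not depend on scaling. Per 100 Itgb1 reads, control tendons had 9.37 Itga5 reads, 7D 0 mg/kg tendons 25 and 21D 0 mg/kg tendons 24.7, as geometric means. For Itga7 the values were 35, 6.09 and 6.28. The log2 ratio of Itga7 to Itgb1 was -1.51 ± 0.03 (SD, n = 3) in control tendons and -4.04 ± 0.30 (SD, n = 5) in 7D 0 mg/kg tendons. Itgav had 2.97, 6.54 and 8.38 reads per 100 Itgb1 reads, and Itga10 had 0.674, 0.809 and 1.71. The ratios of Itga5 and Itga7 in control tendons did not overlap those of any repaired group, while the Itga10 ratio of the highest control tendon lay above every 7D ratio.

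**Figure D4:**
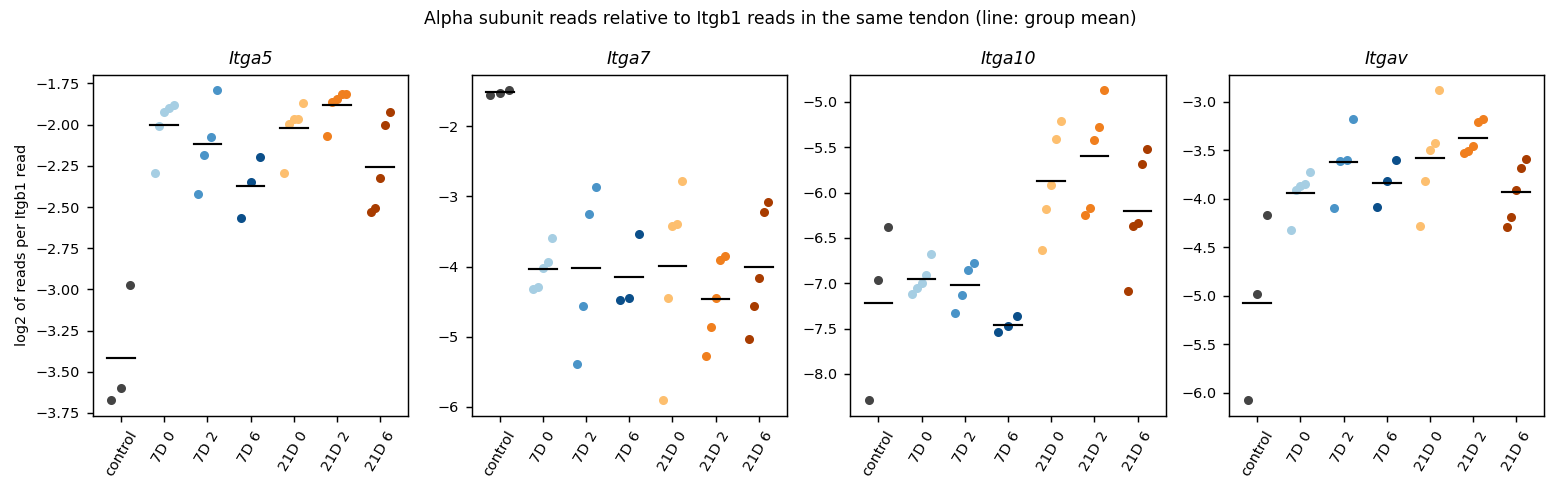
Log2 ratio of the reads of Itga5, Itga7, Itga10 and Itgav to the reads of Itgb1 in the same tendon, with 1 point per tendon and a line at the group mean. The Itga7 mean is -1.51 in control tendons and -4.04 in 7D 0 mg/kg tendons, and the Itga10 means at 21 days (-5.87, -5.60 and -6.20) lie above those at 7 days (-6.95, -7.02 and -7.46).

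The time points were compared at each dose. Itga10 was higher at 21 than at 7 days at 0 mg/kg (log2 fold change 1.15, SE 0.332, adjusted p = 0.0422), 2 mg/kg (1.68, SE 0.367, adjusted p = 0.00324) and 6 mg/kg (1.49, SE 0.408, adjusted p = 0.0165). It was the 1 integrin gene of 10 called in each of these contrasts, in which 2.88%, 7.09% and 8.54% of all genes were called higher and 2.47%, 5.98% and 4.55% lower. The 3 contrasts use separate tendons. At 2 mg/kg the 21D levels of 22.1, 10.8, 30.2, 10.4 and 17.3 CPM lay above the 7D levels of 5.75, 4.71, 5.63 and 6.68 CPM. At 6 mg/kg the 21D levels of 5.42, 9.57, 9.99, 18.8 and 16.6 CPM lay above 4.03, 4.92 and 4.02 CPM. Such separation was seen upward for 11.3% and 10.8% of all genes. Itga5 at 2 mg/kg was separated too, with 186.5 to 251 CPM at 21 days above 145.1 to 180.5 CPM at 7 days. Its log2 fold change of 0.38 did not pass (adjusted p = 0.144). At 0 mg/kg the Itga10 levels of the groups overlapped by 1 tendon of the 21D group. Leaving out any 1 of 7 of the 10 tendons ended the call at 0 mg/kg, at values from 0.96 to 1.29 and adjusted p of at most 0.104, and it was also lost with library size only (adjusted p = 0.051) and in a fit of only the groups compared (adjusted p = 0.0528). At 6 mg/kg it was lost without replicate 1 or 5 of the 7D group (adjusted p = 0.0763 and 0.0717). With the muscle covariate the Itga10 values were 1.23 (adjusted p = 0.0585), 1.96 (adjusted p = 0.0192) and 1.76 (adjusted p = 0.104). At 2 mg/kg that fit also called Itga5 (0.80, adjusted p = 0.0247) and Itgav (1.32, adjusted p = 0.0222) higher and Itga7 (-2.28, adjusted p = 0.00961) lower. It called 1584 of 12558 genes in this contrast, 784 of them higher.

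The dose comparisons ask whether the HPGDS inhibitor moved integrin transcripts in repaired tendons. At 7 days an F-test over the 3 doses called 1 of the 10 genes, Itgb8 (adjusted p = 0.0396), where 2.05% of all genes were called. At 2 mg/kg all 4 Itgb8 levels lay above the 5 levels at 0 mg/kg, as for 2.77% of all genes, with a log2 fold change of 2.90 (SE 0.71, adjusted p = 0.0251), and 0.908% of all genes were called higher and 1.45% lower in this contrast. At 6 mg/kg the levels were 1.61, 1.36 and 4.35 CPM and the difference from 0 mg/kg did not pass (0.70, SE 0.751, adjusted p = 0.998), so the call did not extend to the higher dose. Leaving out any 1 of 10 of the 12 tendons ended the F-test call, at adjusted p of at most 0.145, and so did scaling by library size only (adjusted p = 0.0529) and the muscle covariate (adjusted p = 0.147). The call at 2 against 0 mg/kg was lost without any 1 of 6 of its 9 tendons, at values from 2.57 to 2.92 and adjusted p from 0.0583 to 0.0771, and with the muscle covariate, at 1.77 (adjusted p = 0.19).

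Schwann cell markers were also uneven among these tendons. The 6 markers found summed to 674, 618, 942 and 925 CPM in replicates 2 to 5 of 7D 2 mg/kg and to 456 to 554 CPM at 7D 0 mg/kg, with no overlap, and Pmp22 gave the most reads. The tendons highest in this sum, replicates 4 and 5, were also the highest in Itgb8 and Itga7. Over the 30 tendons the deviations of Itgb8 had an r of 0.526 with those of the Schwann cell sum and 0.607 with those of the macrophage sum. With the endothelial list r was -0.536, with the skeletal muscle list -0.432 and with the tendon list 0.357, so several lists varied with it. The part of these cell types in the Itgb8 result was not tested.

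Itga5 was lower with the inhibitor at 7 days without passing the test. Levels were 177, 181, 179 and 145 CPM at 2 mg/kg and 156, 138 and 147 CPM at 6 mg/kg, all below the 187 to 214 CPM at 0 mg/kg. The log2 fold changes were -0.24 (SE 0.169, adjusted p = 0.538) and -0.46 (SE 0.186, adjusted p = 0.652), where 3.88% and 5.44% of all genes had groups that did not overlap in that direction. The Itga10 levels at 7D 6 mg/kg, 4.02 to 4.92 CPM, also lay wholly below the 5.08 to 9.04 CPM at 7D 0 mg/kg. That difference did not pass (log2 fold change -0.62, SE 0.395, adjusted p = 0.956). Itga1 had 5.05, 8.97, 11.6 and 2.83 CPM at 7D 2 mg/kg and 13.4, 14.9, 15.95, 14.4 and 9.60 CPM at 7D 0 mg/kg, and the groups overlapped. Its log2 fold change was -0.94 (SE 0.284, unadjusted p = 0.00287, adjusted p = 0.0812 by edgeR), and DESeq2 called it, with an adjusted p of 0.0177 for this contrast and 0.0228 over the 3 doses. Without replicate 4 of 7D 2 mg/kg edgeR called it too, at -1.26 (adjusted p = 0.0252). At 21 days edgeR called 0 of 12558 genes over the doses, with 1366 at an unadjusted p under 0.05, and DESeq2 called 138. Itga1 at 21D 2 mg/kg lay below every 0 mg/kg tendon, which had 12.5, 13.5, 9.44, 6.47 and 8.65 CPM, as for 0.78% of all genes. Its log2 fold change was -1.07 (SE 0.266, unadjusted p = 0.000442, adjusted p = 0.388 by edgeR), and DESeq2 gave an adjusted p of 0.0466 for that contrast and 0.0152 over the 3 doses. The interaction of dose and time called 49 genes, which is 0.39%, and 0 of the 10 integrin genes. In it, 985 genes had an unadjusted p under 0.05, none of the 10 among them, and DESeq2 called 181 genes.

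Other subunits showed which receptors stood outside the 10. All 14 on the list were tested, of which 10 were higher and 1 was lower at 7D 0 mg/kg, and 8 were higher and 1 was lower at 21D 0 mg/kg. Over all genes 35.8% and 35.6% were higher and lower at 7 days and 32.2% and 33.7% at 21 days. The same shares stand behind the list counts below unless another fit is named. The median log2 fold changes were 1.15 and 1. The largest increases that passed at 7 days were in leukocyte subunits. Itgax, of dendritic cells and macrophages, rose by log2 fold changes of 4.6 and 5.19 at 7 and 21 days, Itgb2, the shared beta subunit of leukocytes, by 3.63 and 3.85, Itgal by 3.06 and 2.06, and Itgb7 by 2.26 and 1.90. Itgb3, a partner of alpha v and of the platelet subunit Itga2b, rose by 1.45 and 1.59, and Itga2b at 1.83 and 2.09 did not pass. In the fit without control replicate 4, 8 of the 14 were higher at both times while 2 and 1 were lower. Of all genes, 30.7% and 35.5% were then higher and lower at 7 days and 26.5% and 32.6% at 21 days. With the muscle covariate 5 and 6 were higher while 1 and 0 were lower. In that fit 21.5% and 26.4% of all genes were higher and lower at 7 days and 22.6% and 27.6% at 21 days. Among laminin-binding subunits, Itga3 rose by 1.34 and 1.15 and Itga6 by 0.80 and 0.81, while Itgb4 rose by 0.96 at 7 days and was at 0.54 at 21 days without passing. Itga8, which binds RGD ligands, rose by 0.83 and 0.85. Itgae rose by 0.57 at 7 days and was at 0.09 at 21 days. Itga4 and Itga9 did not pass at either time. Itgb6, an epithelial partner of alpha v, was the 1 that fell, from 123 ± 21.5 CPM (SD, n = 3) in control tendons to 3.78 ± 2.62 CPM (SD, n = 5) at 7D 0 mg/kg, a log2 fold change of -5.02, and it was at -2.71 at 21D 0 mg/kg. Within the 21D 0 mg/kg group it ran from 0.598 CPM in replicate 2, with a muscle share of 0.123%, to 44.3 CPM in replicate 5, with 9.14%. As 0 subunits were lower at 21 days with the muscle covariate, its call there was lost. The part of muscle content in the Itgb6 result was not tested.

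**Figure D5:**
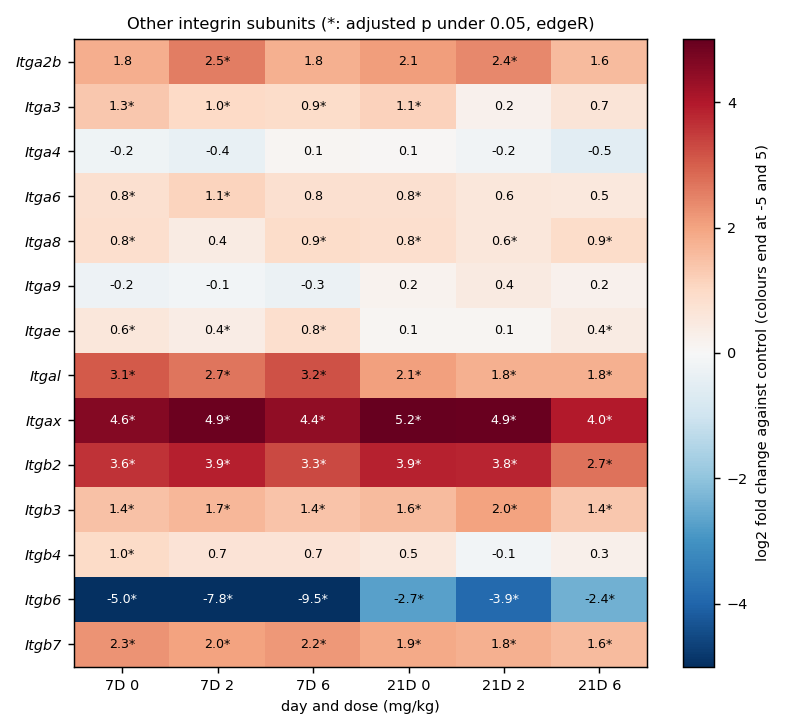
Log2 fold change of the 14 other integrin subunits in the 6 repaired groups against control tendons, as colour and number, with an asterisk where the adjusted p was under 0.05 by edgeR. Itgax, Itgb2, Itgal, Itgb3 and Itgb7 are higher and Itgb6 is lower in all 6 groups.

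The ligands were read beside the receptors. Of 8 collagen genes tested, 8 rose at 7D 0 mg/kg and 7 at 21D 0 mg/kg, with medians of 1.84 and 1.73. Col3a1, an early repair collagen, rose by 2.45 and 2.07, Col5a1 by 2.42 at 7 days and Col5a2 by 2.33 at 21 days. Of 11 RGD ligand genes, 8 rose and 1 fell at 7 days, and 7 rose and 1 fell at 21 days. Spp1, osteopontin, rose by 7.75 and 7.64 and Postn, periostin, by 3.75 and 3.11, while Npnt, the nephronectin ligand of alpha 8, fell by 2.63 and 2.37. Of 6 laminin chains, 3 rose and 2 fell at each time, near the shares of all genes. Lama2, the alpha chain of muscle laminin, was at -2.0 and -1.64 and Lamb2 at -0.88 and -0.81, while Lamb1 rose by 1.58 and 1.24, Lama5 by 1.39 at 7 days and Lama4 by 0.93 at 21 days. With control replicate 4 left out, the collagen counts were the same, and RGD ligands numbered 6 higher and 1 lower at both times. Laminin chains then numbered 3 higher and 2 lower on day 7 and 2 higher and 3 lower on day 21. That fit put 30.7% of all genes higher and 35.5% lower on day 7, against 26.5% and 32.6% on day 21. With the muscle covariate 7 collagen genes rose at both times, and 7 and 6 RGD ligands rose while 0 and 1 fell. Of the laminin chains, 3 then rose at both times while 1 and 2 fell. Among all genes, the covariate fit put 21.5% higher and 26.4% lower on day 7, against 22.6% and 27.6% on day 21.

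The proteins that join integrins to actin were counted last. Of 24 adaptor genes, 11 rose and 9 fell at 7D 0 mg/kg and 10 rose and 8 fell at 21D 0 mg/kg, with medians of 0.08 and 0.12, beside 35.8% and 35.6% of all genes at 7 days and 32.2% and 33.7% at 21 days, and scaled by library size only, 14 rose and 5 fell on day 7 while 14 rose and 2 fell on day 21, where 59.5% and 19.3% of all genes rose and fell on day 7 and 57.9% and 16.5% on day 21. Without control replicate 4, 9 adaptor genes rose at both times while 10 and 9 fell, beside 30.7% and 35.5% of all genes on day 7 and 26.5% and 32.6% on day 21. With the muscle covariate 6 and 8 rose while 6 and 8 fell, beside 21.5% and 26.4% of all genes on day 7 and 22.6% and 27.6% on day 21. Fermt3, the kindlin of blood cells, rose by 2.5 and 2.57, Flna, filamin A, by 1.89 at 7 days and Tns3, a tensin, by 1.96 at 21 days. Itgb1bp2, the muscle protein melusin, was at -5.48 and -3.36, and Tln2, a talin abundant in muscle, at -1.79 and -1.54. Both are known from striated muscle, whose marker list fell in the same contrasts, and its part here was not tested.

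Within groups, the integrin genes differed in the transcripts they resembled. The deviations of Itgb5 from its group means followed those of Fgfr1, a fibroblast growth factor receptor, with r = 0.964 over the 30 tendons and 0.940 without the 2 most extreme, and those of the tendon marker sum with r = 0.857. Itgav was most like Atrnl1 and Man2a1, both with r = 0.946. Itga2 was most like Zfp518b (0.924) and Antxr1 (0.917), and these fell to 0.789 and 0.763 without the 2 most extreme tendons. For Itga11 the first genes were Timp2, a metalloproteinase inhibitor (0.876), and Map1b (0.853), for Itgb8 Col4a3, a basement membrane collagen (0.860), for Itga5 Cramp1 (0.843), for Itgb1 Rai14 (0.799), for Itga10 Hmcn1, a matrix protein (0.746), and for Itga1 Fryl (0.709), Ptch1 (0.705) and Setd7 (0.704). Without the 2 most extreme tendons Itga1 had an r of 0.483 with Fryl, 0.412 with Ptch1 and 0.626 with Setd7. The tendons share depth and scaling, and these likenesses are descriptions.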

How the data were processed

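Reads were 50 bases, single-end, from right plantaris tendons cut out between the muscle junction and the heel bone. The authors trimmed reads with fastp, aligned them to rn6 with STAR and deposited raw counts of exon reads per Ensembl gene. Strandedness is not given in the sources used here. Columns of the deposited comparison table that hold fold changes and p-values were not used. The 10 genes and all gene lists were chosen with earlier results of these data known.

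The analysis used edgeR 4.0.16 under R 4.3.3. Genes whose mean reached 3 CPM in 1 or more groups were kept, TMM factors were applied, and a single quasi-likelihood model with a mean per group was fitted to the 30 tendons. SE values were obtained as the absolute log2 fold change over the root of F. The genes named are the 10 members, all other integrin subunits tested, the 2 largest increases and 2 largest decreases that passed in each further list at 0 mg/kg, and genes among the 3 most correlated with each member, some of which are not reported here. Median totals were 28763285 in control tendons, 33575050, 22055144.5 and 30963782 in the 7D groups and 30165495, 33624028 and 26515892 in the 21D groups, by dose. The fit was first tested on simulated counts for 7D 0 mg/kg against control tendons. Of 62, 71 and 67 genes changed by 1.5-, 2- and 4-fold, it called 1.61%, 54.9% and 98.5%, and 4 of its 110 calls were on unchanged genes. Many more genes were called in the real contrasts with control tendons, so these shares do not give the rate of missed calls there. The alternatives were RLE factors, library size only, the muscle list removed before scaling, 2 other filters, only the groups compared, DESeq2 1.42.0, a 1.5-fold minimum, the replicate number as a block, the log2 muscle share as a covariate, 2 added counts for ratios, and each tendon left out in turn.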

Additional observations from a re-analysis of the deposited data

Results flagged for a closer look

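In 50 tests of a gene in a group of 4 or 5 tendons, a tendon stood apart from the rest in 2, and chance gives about 1 in 20. In 7D 2 mg/kg replicate 5 the Itga5 level was 145.1 CPM, and the other 3 tendons of the group were between 177 and 181 CPM. In 21D 2 mg/kg replicate 2 the Itgb8 level was 17.16 CPM, and the other 4 tendons were between 1.29 and 5.84 CPM. Without that tendon the Itgb8 log2 fold change against control tendons was 1.09 (adjusted p = 0.192).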

How the results depend on the processing

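Over the values of the 10 genes, 1355 kept their side of the threshold under an alternative other than a left-out tendon. A further 26 passed anew, 34 no longer passed, and 4 that had passed no longer did and turned in sign. With a tendon left out the numbers were 1566, 14 and 50, and no value that had passed turned in sign. Values that passed in neither fit were counted as kept, also where their sign turned. Itga2 at 7D 0 mg/kg went from 0.09 to -0.46 without control replicate 4, and Itga1 at 7D 2 mg/kg from -0.49 to 0.05 by library size only. The causes of the changes were not tested. Control replicate 4 and the muscle share that no repaired group has in common with control tendons limit the contrasts with control tendons, and the few reads of Itgb8 limit its dose contrast.

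With the muscle share as a covariate, Itga7 reversed to 0.70 at 7D 2 mg/kg and 0.32 at 7D 6 mg/kg, and Itgav to -0.23 and -0.35. In that fit the integrin genes higher and lower than control numbered 1 and 0 at 7D 0 mg/kg, with 6017 genes called, 0 and 0 at 7D 2 mg/kg, with 2219 genes called, and 0 and 0 at 7D 6 mg/kg, with 2673 genes called. There were 3 higher at 21D 2 mg/kg, with 6913 genes called, and 1 at 21D 6 mg/kg, with 6299 genes called. Between 21 and 7 days at 0 mg/kg it called 307 of 12558 genes, 171 of them higher, with 0 integrin genes higher. At 2 mg/kg it called 1584 genes, 784 of them higher, with 3 integrin genes higher and 1 lower. At 6 mg/kg it called 191 genes, 133 of them higher, with 0 integrin genes higher. Between doses at 7 days it called 560 genes and 0 integrin genes, with 856 genes and 0 integrin genes higher at 2 against 0 mg/kg and 176 genes at 6 against 0 mg/kg, and in the interaction 373 genes. Scaling by library size only gave 7 higher at 7D 0 mg/kg, where 59.5% of all genes were higher, and 1 lower at 21D 2 mg/kg, where 19.3% were lower. It gave 0 higher at 21 against 7 days at 0 mg/kg, where 224 of 12558 genes were higher. This scaling called 230 genes and 0 integrin genes over the doses at 7 days, and 1 gene over the doses at 21 days. Of the genes called against control tendons, it put 74.1 to 77.9% higher, where TMM put 48 to 51.3% higher. A fit of only the groups compared gave 1 integrin gene higher at 7D 6 mg/kg, where 3075 of 12246 genes were higher. It gave 0 higher at 21 against 7 days at 0 mg/kg, where 237 of 12129 genes were higher. The same kind of fit called 94 genes at 7D 6 against 0 mg/kg, 1 gene over the doses at 21 days and, with the 6 repaired groups, 31 genes in the interaction. DESeq2 called 1496 genes at 21 against 7 days at 0 mg/kg, and 572 genes and 2 integrin genes over the doses at 7 days, with 710 genes and 1 integrin gene, Itga1, lower at 2 mg/kg and 194 genes at 6 mg/kg. At 21 days it called 138 genes and 1 integrin gene over the doses, 19 genes and 1 integrin gene, again Itga1, lower at 2 mg/kg and 1 gene at 6 mg/kg, and 181 genes in the interaction. A minimum of 1.5-fold left 428 genes at 21 against 7 days at 0 mg/kg.

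Tendons with the same replicate number did not deviate together, with a mean correlation of 0.007 over 76 pairs, so the numbers do not pair them. With the replicate number as a block, 226 of 12558 genes and 0 integrin genes passed over the doses at 7 days, where Itgb8 had an adjusted p of 0.0883. In that fit the interaction called 28 genes, and Itga11 passed at 21D 2 and 6 mg/kg.

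When single tendons were left out, the integrin genes higher than control ranged from 1 to 4 at 7D 0 mg/kg, 1 to 4 at 7D 6 mg/kg, 3 to 6 at 21D 2 mg/kg and 2 to 6 at 21D 6 mg/kg, and those lower ranged from 1 to 2 at 7D 2 mg/kg. Of all genes, these fits called 8314 to 8808 at 7D 0 mg/kg, 8145 to 8574 at 7D 2 mg/kg and 7919 to 8441 at 7D 6 mg/kg. At 21D 2 and 6 mg/kg they called 7910 to 8505 and 7109 to 8014 genes, higher and lower together. Between 21 and 7 days the genes called ranged from 203 to 1411 at 0 mg/kg, 953 to 1545 at 2 mg/kg and 795 to 1973 at 6 mg/kg, with 0 to 1 integrin gene higher at 0 and at 6 mg/kg and 0 to 1 lower at 2 mg/kg. Over the doses at 7 days they ranged from 161 to 315 with 0 to 1 integrin gene, at 2 against 0 mg/kg from 125 to 464 with 0 to 1 higher and 0 to 1 lower, and at 6 against 0 mg/kg from 0 to 60. Over the doses at 21 days they ranged from 0 to 2 and in the interaction from 16 to 79.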

Other observations

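The markers of other cell types differed in how they moved at 0 mg/kg against control tendons. Of all genes, 35.8% and 35.6% were higher and lower at 7 days and 32.2% and 33.7% at 21 days. Without control replicate 4 these shares were 30.7% and 35.5%, and 26.5% and 32.6%. With the muscle share as a covariate they were 21.5% and 26.4%, and 22.6% and 27.6%. They stand behind the counts of this and the next paragraph. All 8 macrophage markers were higher at 7 days and 7 at 21 days, with Cd68 at log2 fold changes of 3.27 and 3.17, and 5 and 4 were higher without control replicate 4 and 1 and 2 with the muscle share as a covariate. Endothelial markers were higher in 4 of 7 at 7 days, with Vwf, von Willebrand factor, at 1.25, and in 0 of 7 at 21 days, and they numbered 6 and 2 without control replicate 4 and 6 and 1 with the covariate. Smooth muscle and pericyte markers were higher in 4 of 9 and lower in 1 at 7 days and higher and lower in 1 each at 21 days, where Pdgfrb, a pericyte receptor, was at 1.51 and Lmod1 at -1.34. Leaving out control replicate 4 gave 4 higher and 2 lower at 7 days and 1 each at 21 days, and with the covariate 6 higher and 1 lower at 7 days and 1 each at 21 days. Of 6 Schwann cell markers, 0 passed at 7 days and 1, Pmp22, was higher at 21 days at 0.53, and 0 passed at either time without control replicate 4 or with the covariate.

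Of 8 tendon markers, 1 was higher and 4 were lower at 7 days, and 1 was higher and 3 were lower at 21 days. Leaving out control replicate 4 gave 1 higher and 5 lower at 7 days and 0 higher and 4 lower at 21 days, and the covariate left the counts as they were. Mkx, a tendon transcription factor, was at -4.10 and -2.42 and Kera, keratocan, at -3.09 and -1.46. Col1a1, the main tendon collagen, was higher at 7 days at 1.14, and Thbs4 was higher at 21 days at 1.09. Of 7 cartilage markers, 3 were higher and 2 lower at 7 days, with Chad, a matrix protein that binds integrins, at -5.74. In the fit without control replicate 4, 1 was higher and 2 were lower at both times, and with the covariate 2 were higher at 7 days and 1 at 21 days, with 2 lower at both. The tendon markers and Itgb5, Itga2 and Itga11 deviated together from their group means, with r of 0.857, 0.798 and 0.791 over the 30 tendons and 0.744, 0.539 and 0.565 without the 2 most extreme.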
